A study of Homo sapiens with 16 samples.

Results

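The BCL2 family sets the threshold for apoptosis at the mitochondrial outer membrane. The 10 members described here were chosen by name from 60669 genes, and each has 1 row in both deposited tables: the guardians BCL2, BCL2L1 (BCL-xL) and MCL1, the pore formers BAX and BAK1, and the BH3-only genes BID, BAD, BBC3 (PUMA), PMAIP1 (NOXA) and BCL2L11 (BIM). RNA came from HMC3, an established human cell line described as microglial, either wild type or labelled knockout for METTL3, the catalytic subunit of the enzyme that writes N6-methyladenosine (m6A) on mRNA. Smart-seq2, which amplifies polyadenylated RNA, gave 5 wild-type and 5 knockout-labelled libraries. A directional kit used after ribosomal RNA depletion gave 3 and 3 more, each library starting from 100 ng of RNA. How the knockout was made, how many clones it represents and whether replicates were separate cultures are not given in the sources used here, so p-values measure only the spread between these samples, which may be technical.

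In healthy cells the guardians bind the pore formers and hold them inactive. BH3-only proteins tip that balance: BIM, PUMA and truncated BID engage every guardian and can act on the pore formers, BAD engages BCL2 and BCL-xL, and NOXA chiefly engages MCL1. Activated BAX and BAK1 oligomerise, cytochrome c leaves the mitochondrion and caspases are switched on. Many members are also set after transcription, by splicing (BCL2L1, MCL1 and BCL2L11 have isoforms with opposed or graded activity), by cleavage (BID), by phosphorylation (BAD) and by rapid protein turnover (MCL1, NOXA). Both tables give 1 value for each gene, so isoforms and protein forms were not measured.

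The libraries differ in ways that bear on every value below. The poly(A) libraries were used through the authors' deposited table, whose fold changes and p-values cover all 10 libraries at once and give no per-library level. The rRNA-depleted libraries were used through TPM, a length-normalized abundance, which corrects reads for gene length and for the library's total. Recovered depth was 266157 to 487272 reads in wild-type and 512627 to 1267171 reads in knockout-labelled libraries. Between knockout-labelled libraries 1 and 2 a chi-square test over 10117 genes found no difference beyond sampling noise at 0.05 (chi-square per degree of freedom 1.02, p = 0.0687), while every other pair within a label differed. A test that misses its threshold does not show that they are 1 library, but they were counted as 1 sample, leaving 3 samples of the wild type and 2 under the knockout label. METTL3 mRNA itself was 25.4 to 31.6 TPM in the wild type and 39.2 to 42.7 TPM in the libraries labelled knockout, and in poly(A) RNA the authors' deposited table gave it a log2 fold change of 0.09 (adjusted p 0.654), so mRNA checks the label in neither library type. TOX4, which shares 388 exonic bases with METTL3 on the opposite strand, was 23.6 to 33.6 TPM and 54.4 to 62.8 TPM, and whether the counting used strand is not given in the sources used here. Smart-seq2 does not mark strand, and in the authors' deposited table TOX4 had a log2 fold change of 0.35 (adjusted p 0.00276). Of 15 microglia and macrophage markers, 10 were listed at 0 TPM in all 6 libraries, among them AIF1, CX3CR1, P2RY12, TMEM119 and SPI1, and the summed level of the list was 52.5 to 70.5 TPM in the wild type and 68.8 to 92.4 TPM under the knockout label. A list of 10 fibroblast and pericyte markers summed to 12040 to 14380 TPM in the wild type and 5998 to 6126 TPM under the knockout label, with LUM at 0 in all 6 libraries, and COL3A1 and DCN above 0 in 1 wild-type library each. That list did not move one way: of 7 tested, 3 were called higher and 3 lower. COL1A1 went from 9612 to 11990 TPM, most of the wild-type sum, to 749 to 865 TPM, while VIM went from 446 to 521 TPM to 2157 to 2306 TPM and FN1 from 802 to 871 TPM to 2168 to 2237 TPM. A list of 9 markers of neurons, other glia and endothelium summed to 0.556 to 5.57 TPM in the wild type and 9.62 to 10.8 TPM under the knockout label. The part of these shifts in the results for the family was not tested.

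For 3 members the sequence around the start of transcription is shown: those of 2 hold known factor motifs, and the third holds none of those searched. RefSeq windows on GRCh38.p14, from 250 bases before to 50 bases after the start, were held for 9 of the 10 members. Only the first listed window of each gene was searched, and BID has 5, BCL2L1 2 and BAD 2. Capitals mark matches to 1 of 4 motifs, searched on both strands: the interferon-stimulated response element (GAAANNGAAA), the interferon gamma activated site (TTCNNNGAA), an ATF4 response element (TGATGCAA) and the E-box (CACGTG). BBC3 (chr19:47232618-47232917, minus strand) is shown because it alone of the 9 windows matched the interferon element, at 2 overlapping positions 26 to 41 bases after the start, and it also holds 1 E-box.
BBC3: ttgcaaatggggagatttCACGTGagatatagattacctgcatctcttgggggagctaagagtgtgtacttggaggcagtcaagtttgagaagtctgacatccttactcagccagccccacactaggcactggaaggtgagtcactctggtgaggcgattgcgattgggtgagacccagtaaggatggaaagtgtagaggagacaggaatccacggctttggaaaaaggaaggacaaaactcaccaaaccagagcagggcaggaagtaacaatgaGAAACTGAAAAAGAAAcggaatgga
BAX (chr19:48954625-48954924, plus strand) is shown for its 4 E-boxes, which lie 138, 93, 45 and 14 bases before the start.
BAX: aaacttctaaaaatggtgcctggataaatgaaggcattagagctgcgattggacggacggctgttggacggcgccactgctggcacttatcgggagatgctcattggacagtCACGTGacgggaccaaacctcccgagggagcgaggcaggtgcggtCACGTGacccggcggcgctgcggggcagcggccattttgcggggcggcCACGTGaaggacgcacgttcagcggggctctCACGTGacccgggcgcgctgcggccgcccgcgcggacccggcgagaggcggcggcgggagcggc
PMAIP1 (chr18:59899746-59900045, plus strand) is shown because its value lay above the wild type in both library types, as that of BCL2L11 did, and its window matched none of the 4 motifs.
PMAIP1: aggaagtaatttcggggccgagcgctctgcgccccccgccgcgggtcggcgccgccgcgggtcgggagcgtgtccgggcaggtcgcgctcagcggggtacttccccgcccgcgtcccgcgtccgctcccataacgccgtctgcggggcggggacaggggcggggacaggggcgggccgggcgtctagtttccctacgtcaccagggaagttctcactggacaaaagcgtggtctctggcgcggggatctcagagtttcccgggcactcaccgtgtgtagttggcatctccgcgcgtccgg
Among 27167 windows of the same length, 3.6% hold the interferon element, 7.9% the interferon gamma site, 0.9% the ATF4 element and 7.4% an E-box. The GC content of the members' windows was 48.0% in BBC3, 52.0% in BCL2L1 and 74.7% in BCL2L11, and the median over all windows was 58.3%. A match describes letters and says nothing about binding in these cells.

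In the wild type the guardians MCL1 and BCL2L1 were the most abundant members. On the TPM scale the order was MCL1 (230 to 243 TPM), BCL2L1 (199 to 206), BAD (63.1 to 121), BAX (79.4 to 104), BID (47.8 to 62.8), BAK1 (18.9 to 25.6), PMAIP1 (18.5 to 19.0), BBC3 (6.68 to 9.76), BCL2 (1.35 to 9.24) and BCL2L11 (3.11 to 5.40). The levels of neighbours in that order overlapped for BAD and BAX, for BAK1 and PMAIP1, and among BBC3, BCL2 and BCL2L11. Under the knockout label the first 7 genes kept their places, but MCL1 (183 to 196 TPM) and BCL2L1 (171 to 201 TPM) then overlapped, and BCL2, at 0.843 to 3.93 TPM, was the lowest. BCL2, the founding gene of the family, was thus among the scarcest members in HMC3, beside BBC3 and BCL2L11. Its values came from 1 to 11 reads per library, and those of BBC3 and BCL2L11 from 2 to 7 and 2 to 20 reads.

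**Figure D1:**
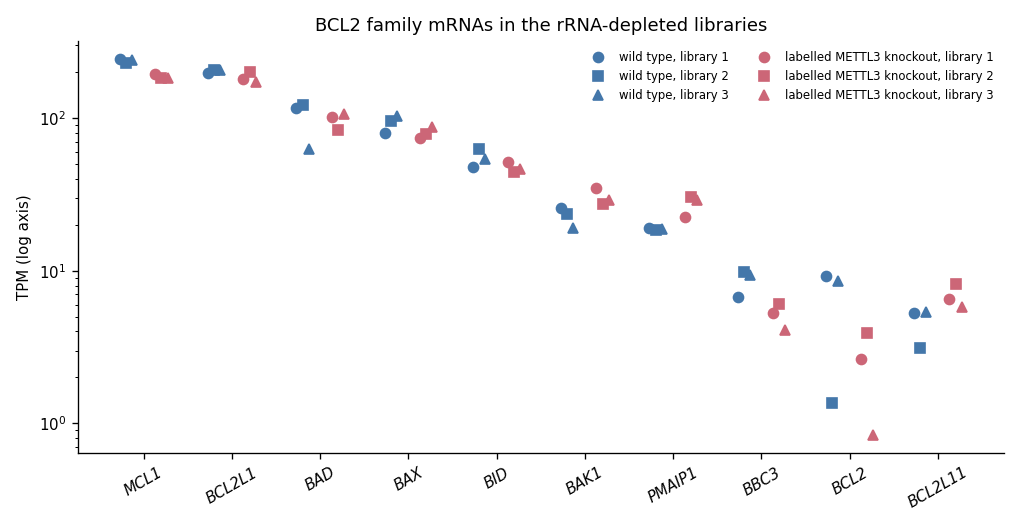
TPM of the 10 members in each of the 6 rRNA-depleted libraries, on a log axis, with genes ordered by their wild-type mean. Blue points are wild-type libraries and red points are libraries labelled METTL3 knockout. MCL1 falls from 230 to 243 TPM to 183 to 196 TPM with no overlap, PMAIP1 is at most 19.0 TPM in the wild type and at least 22.5 TPM under the knockout label, and BCL2 spreads widely within both labels.

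In poly(A) RNA, where the question is which family mRNAs with a tail differ between genotypes, 3 members were lower and 2 higher under the knockout label. An adjusted p was given for 9 members in the authors' deposited table. Of these, 5 were under 0.05, and so were 19.9% of the 14009 genes that had one. As lower passed 10.3% of all genes in the authors' deposited table, and as higher 9.55%. The table does not name the numerator of its log2 fold change, and a positive value was read as higher in the knockout because, read that way, it shares its sign with rRNA-depleted RNA for 162 of 177 genes (91.5%) that passed and moved by 1 or more on the log2 scale in each. If the wild type were the numerator, each direction taken from that table would be opposite. Their middle value in the authors' deposited table, as a median log2 fold change, was -0.41 over the 9 members and 0.02 over all genes with an adjusted p. In bulk RNA such as this, fewer cells of a kind and less RNA per cell cannot be told apart.

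Among the guardians, BCL2L1 fell clearly in poly(A) RNA. In the authors' deposited table BCL2L1 (ENSG00000171552; chromosome 20, 31664452 to 31723989, minus strand, GRCh38) moved by a log2 fold change of -0.87 (SE 0.10; adjusted p 2.89e-15), a level 1.83-fold lower, at a mean normalized count of 154. MCL1 (ENSG00000143384; chromosome 1, 150574551 to 150579738, minus strand) was measured as well, at a mean normalized count of 213, and its value in the authors' deposited table was 0.06 (SE 0.09) with an adjusted p of 0.754. BCL2 (ENSG00000171791; chromosome 18, 63123346 to 63320128, minus strand) averaged 0.699 normalized counts and has no adjusted p in the authors' deposited table, so a difference in BCL2 was not detectable there.

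Of the pore formers, BAK1 fell in poly(A) RNA and BAX did not pass the test. BAK1 (ENSG00000030110; chromosome 6, 33572547 to 33580293, minus strand) moved by a log2 fold change of -0.72 (SE 0.20; adjusted p 0.00243) in the authors' deposited table. BAX (ENSG00000087088; chromosome 19, 48954815 to 48961798, plus strand) stood at -0.41 (SE 0.26; adjusted p 0.288) in the authors' deposited table. BAK1 and BCL2L1 were the 2 members with an adjusted p under 0.01 in the authors' deposited table.

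The BH3-only genes moved in different directions in poly(A) RNA. BCL2L11 (ENSG00000153094; chromosome 2, 111119378 to 111168447, plus strand) rose by a log2 fold change of 1.56 (SE 0.54; adjusted p 0.025) in the authors' deposited table, from a mean normalized count of only 7.27, and was the 1 member that passed with an absolute value above 1. PMAIP1 (ENSG00000141682; chromosome 18, 59899948 to 59904306, plus strand) rose by 0.43 (SE 0.15; adjusted p 0.0328) in the authors' deposited table. BAD (ENSG00000002330; chromosome 11, 64269830 to 64284704, minus strand), which couples survival kinases to BCL-xL, fell by 0.61 (SE 0.23; adjusted p 0.0428) in the same authors' deposited table. BID (ENSG00000015475; chromosome 22, 17734138 to 17774770, minus strand), the caspase-8 substrate, had a log2 fold change of 0.05 (SE 0.10; adjusted p 0.818) in the authors' deposited table. BBC3 (ENSG00000105327; chromosome 19, 47220822 to 47232766, minus strand) had -1.27 (SE 1.12; adjusted p 0.487) in the authors' deposited table at a mean normalized count of 1.18, too few for a difference to be detectable.

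In rRNA-depleted RNA, which also holds transcripts without a tail, MCL1 was the 1 member that passed. Of 14789 genes tested with limma on log2(TPM + 1), 35.3% had an adjusted p under 0.05 and 12.4% passed as lower, and 1 of the 10 members passed, as lower. An unadjusted limma p under 0.05 was reached by 2 of the 10 members, MCL1 and PMAIP1, and by at least the 35.3% of all genes that passed after adjustment. The 2 labels' samples did not overlap for 6 of the 10 members (3 higher and 3 lower), where 62.7% of all genes tested did not overlap. BCL2L1 is among the lower ones only with knockout-labelled libraries 1 and 2 averaged, as its separate libraries overlap. The log2 change had a median of 0.41 over all genes and -0.17 over the members, and 8 of the 10 members lay below the median of all genes. Changes also ran with base composition: across 14669 genes the Spearman correlation of the log2 change with the GC content of the longest transcript was -0.37, a description over genes and not over replicates. The members' GC content ran from 37.2% in PMAIP1 to 69.7% in BBC3, with a median of 48.5% over all genes tested, and its part in their changes was not tested beyond the alternative that removes the trend.

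MCL1 was measured at 243, 230 and 240 TPM in wild-type libraries and at 196, 183 and 185 TPM under the knockout label, in the order of libraries 1 to 3, as below. Every wild-type library was above every knockout-labelled one. The wild-type mean was 237.5 ± 6.98 TPM (SD, n = 3). The knockout-labelled mean was 187 ± 3.51 TPM (SD, n = 2). These rest on 97 to 175 reads per wild-type library and 125 to 292 per knockout-labelled library. The log2 change was -0.34 (SE 0.09; 95% interval -0.57 to -0.11), with a limma adjusted p of 0.0387, and -0.75 relative to the median of all genes. The direction held in all 16 alternatives, but the limma adjusted p was 0.0976, 0.0529 and 0.0794 without wild-type libraries 1, 2 and 3 in turn. The limma adjusted p was 0.0563 without knockout-labelled library 2 and 0.0634 with no filter on low values. Without knockout-labelled library 3, which leaves 1 knockout-labelled sample, the log2 change was -0.32. The same gene stood at 0.06 in poly(A) RNA in the authors' deposited table. ADAMTSL4-AS1, whose exons share 2 bases with MCL1 on the same strand, went from 71.0 to 93.6 TPM in the wild type to 3.13 to 7.67 TPM under the knockout label, and its part in the MCL1 difference was not tested.

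BCL2L1 had 199, 206 and 206 TPM in the wild type and 181, 201 and 171 TPM under the knockout label. Knockout-labelled library 2 lay within the wild-type range and the other two below it. The log2 change was -0.17 (SE 0.10; 95% interval -0.42 to 0.09; limma adjusted p 0.246), against -0.87 in the authors' deposited table for poly(A) RNA. With median ratio scaling of the libraries its log2 change was -0.52 (limma adjusted p 0.0148), with MCL1 then the other of 2 members passing as lower against 16.9% of all genes. With the GC trend removed it was 0.33 (limma adjusted p 0.0912). An antisense gene, ABALON, covers 1424 exonic bases of BCL2L1 on the opposite strand and was listed at 0 TPM in the wild type and at 1.44 to 3.52 TPM, 1 or 2 reads, under the knockout label. In the poly(A) libraries, which do not mark strand, ABALON had a log2 fold change of -0.33 (adjusted p 0.634) in the authors' deposited table.

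BCL2 was measured at 9.24, 1.35 and 8.59 TPM in the wild type and at 2.62, 3.93 and 0.843 TPM under the knockout label. These are 10, 1 and 11 reads against 6, 11 and 1, so the labels overlap and 1 read separates the extremes from 0. The log2 change was -1.13 (SE 0.85; 95% interval -3.28 to 1.02; limma adjusted p 0.35). It was -1.48 with voom on recovered reads, which weighs low counts (adjusted p 0.0127), the fit in which BCL2, BCL2L1, MCL1 and BAX all passed as lower, 4 of 10 members against 23.9% of all genes. Without wild-type library 2 the log2 change was -1.82 and without knockout-labelled library 3 it was -0.52, so single libraries decide its size.

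The pore formers did not pass in rRNA-depleted RNA. BAX had 79.4, 96.0 and 104 TPM in the wild type and 73.9, 78.3 and 87.4 TPM under the knockout label, overlapping groups with a shift in log2 of -0.18 (SE 0.16; limma adjusted p 0.43). Its log2 change was -0.51 with voom (adjusted p 0.0475) and 0.31 with the GC trend removed. BAK1 had 25.6, 23.4 and 18.9 TPM in the wild type and 34.9, 27.2 and 29.2 TPM under the knockout label, with no overlap. Its log2 change was 0.41 (SE 0.22; 95% interval -0.15 to 0.97; limma adjusted p 0.21), close to the median of all genes. BAK1 thus lay above 0 on this scale and below 0 in the authors' deposited table, where it passed as lower. Its rRNA-depleted values rest on 5 to 23 reads per library.

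PMAIP1 was the BH3-only gene whose values were most alike within the wild type. It had 19.0, 18.5 and 18.8 TPM there and 22.5, 30.6 and 28.9 TPM under the knockout label, from 4 to 7 and 10 to 25 reads. Each knockout-labelled library was above each wild-type one. The log2 change was 0.54 (SE 0.20; 95% interval 0.03 to 1.05) with an unadjusted p of 0.0428 and a limma adjusted p of 0.0963, and 0.13 relative to the median of all genes. With median ratio scaling it was 0.20, and with the GC trend removed it was -0.17, so its direction depends on that correction. PMAIP1, at 37.2%, has the lowest GC content of the family.

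BCL2L11 was also higher in each knockout-labelled library, at 6.54, 8.23 and 5.82 TPM against 5.32, 3.11 and 5.40 TPM. Its log2 change was 0.46 (SE 0.44; limma adjusted p 0.455), and 0.05 relative to the median of all genes. The log2 change was above 0 in all 16 alternatives, and BCL2L11 passed in no alternative with more than 1 sample in each label. Relative to that median it was -0.279 with the GC trend removed, -0.105 without wild-type library 2 and -0.014 without knockout-labelled library 2. The relative value was above 0 in the rest. The noncoding gene MIR4435-2HG shares 727 exonic bases with BCL2L11 on the opposite strand and stood higher, at 13.3 to 20.3 TPM. Smart-seq2 does not mark strand, so in the poly(A) table reads of this pair cannot be told apart over those bases. There MIR4435-2HG had a log2 fold change of -0.40 (adjusted p 0.106) in the authors' deposited table.

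The other BH3-only genes gave no call in rRNA-depleted RNA. BBC3 had 6.68, 9.76 and 9.41 TPM in the wild type and 5.27, 6.03 and 4.06 TPM under the knockout label. The labels did not overlap, but the values rest on 2 to 7 reads, and the log2 change was -0.71 (SE 0.41; limma adjusted p 0.226). It became 0.45 once the GC trend was taken out. BBC3 is the member with the interferon element shown above and with the highest GC content, 69.7%. BID had 47.8, 62.8 and 53.9 TPM against 51.3, 44.4 and 46.5 TPM, which overlap, with a log2 change of -0.21 (SE 0.17; 95% interval -0.64 to 0.23; limma adjusted p 0.392). BAD had 116, 121 and 63.1 TPM against 102, 83.4 and 106 TPM. Wild-type library 3 was well below the other wild-type libraries, and the log2 change was 0.04 (SE 0.31; limma adjusted p 0.928), or -0.26 without that library. The sign of BAD also turned without either of 2 knockout-labelled libraries, 1 (-0.03) and 3 (-0.05). BAD shares 404 exonic bases with GPR137 on the opposite strand.

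**Figure D2:**
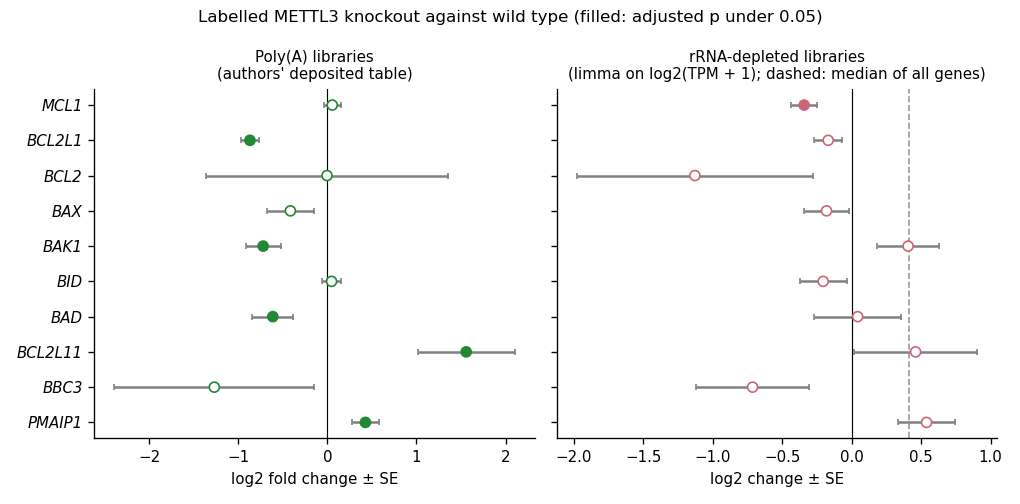
Log2 change of each member, labelled METTL3 knockout against wild type, with its SE as a bar: the authors' deposited table for poly(A) RNA on the left, limma on log2(TPM + 1) for rRNA-depleted RNA on the right. Filled points have an adjusted p under 0.05 and the dashed line is the median of all genes, 0.41. BCL2L1, BAK1, BAD, BCL2L11 and PMAIP1 are filled on the left, and MCL1 alone on the right.

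Across the 2 library types no member passed in both limma and the authors' deposited table. At an unadjusted p under 0.05 in limma PMAIP1 would, a threshold that at least 35.3% of all genes tested reached. BCL2L1 would with median ratio scaling, with 75th percentile scaling (limma adjusted p 0.0492) and with voom (adjusted p 0.0206). Of the 5 members that passed in the authors' deposited table, 3 had the same sign in rRNA-depleted RNA: BCL2L1 (-0.87 and -0.17), BCL2L11 (1.56 and 0.46) and PMAIP1 (0.43 and 0.54), as log2 changes in the authors' deposited table and in limma. BAK1 (-0.72 and 0.41) and BAD (-0.61 and 0.04) had opposite signs. These signs are taken against 0, while the median of all genes was 0.41 in limma and 0.02 in the authors' deposited table. Relative to the limma median the values were -0.58 for BCL2L1, 0.05 for BCL2L11, 0.13 for PMAIP1, -0.006 for BAK1 and -0.37 for BAD. On that scale all 5 had the sign they had in the authors' deposited table, with BAK1 close to 0. The scales differ, the libraries are separate, and the difference between library types was not tested.

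Ratios of 2 members within a library do not move with the scaling of that library. They describe relative mRNA levels, and the balance of the proteins was not measured. The ratio of PMAIP1 to MCL1, a BH3-only protein and the guardian it chiefly binds, was 0.0782, 0.0806 and 0.0782 in the wild type and 0.115, 0.167 and 0.157 under the knockout label. The labels did not overlap, and the mean ratio was 1.88-fold higher under the knockout label (0.079 ± 0.0014, SD, n = 3, and 0.149 ± 0.0109, SD, n = 2). PMAIP1 had only 4 to 7 reads per wild-type library and 10 to 25 per knockout-labelled one. That is too few for the narrow wild-type SD to measure the counting error. How many ratios of other genes fail to overlap was not computed. The ratio of BCL2L1 to MCL1 was 0.818, 0.897 and 0.859 in the wild type and 0.922, 1.10 and 0.928 under the knockout label, again without overlap, with the mean 1.13-fold higher. In poly(A) RNA BCL2L1 instead fell relative to MCL1, with log2 fold changes of -0.87 and 0.06 in the authors' deposited table. PMAIP1, at 0.43, rose relative to MCL1 there. The ratio of BAX to BCL2, often quoted as a measure of readiness for apoptosis, ran from 8.59 to 71.1 in the wild type and from 19.9 to 104 under the knockout label. The labels overlapped widely, with the highest value in each label in the library where BCL2 had 1 read, and the mean difference of 33.3 became -6.57 without knockout-labelled library 3. No test was made of the ratios. They hold within a library but still carry differences in GC content, which was 37.2% in PMAIP1, 45.1% in MCL1 and 56.9% in BCL2L1. With the GC trend removed the log2 changes were -0.17 for PMAIP1, -0.65 for MCL1 and 0.33 for BCL2L1.

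**Figure D3:**
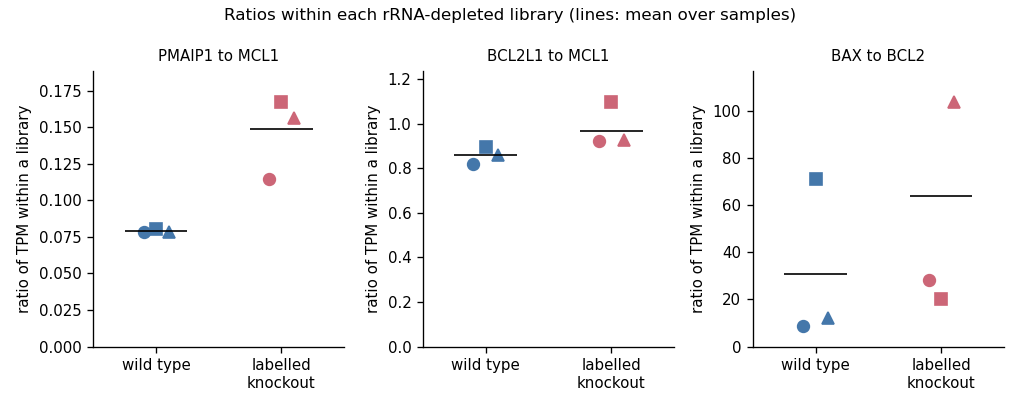
Ratio of the TPM of 2 members within each rRNA-depleted library, with both labels on the x axis and the mean over samples as a line. PMAIP1 to MCL1 is 0.0782 to 0.0806 in the wild type and 0.115 to 0.167 under the knockout label, while BAX to BCL2 overlaps between labels. PMAIP1 rests on 4 to 7 reads per wild-type library and 10 to 25 per knockout-labelled one.

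The choice of scaling moved all members together, and removal of the GC trend moved them apart. Median ratio scaling shifted the median of all genes from 0.41 to 0.11 on the log2 scale, the share of calls that were higher from 64.8% to 48.6%, and the log2 change of BAD from 0.04 to -0.31. Removing the GC trend turned the sign of BCL2L1, BAX, BBC3 and PMAIP1, and gave BAD 0.92 and BAK1 0.89. MCL1 had -0.65 (limma adjusted p 0.00615) with that trend removed and remained the 1 member that passed. MCL1, BCL2 and BID were below 0, and BAK1 and BCL2L11 above 0, in all alternatives that gave them a value. Relative to the median of all genes, BAK1 and BCL2L11 lay on both sides of 0 across the alternatives.

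**Figure D4:**
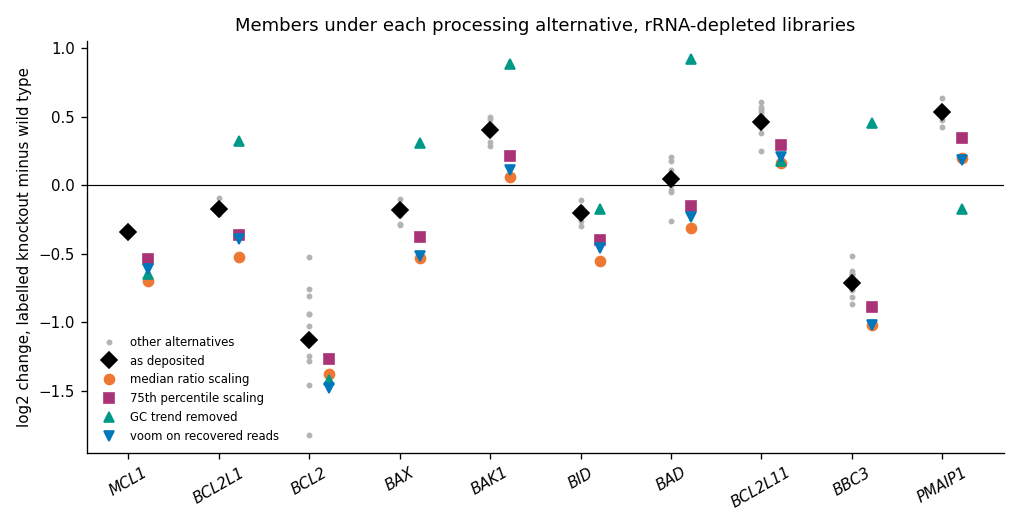
Log2 change of each member in rRNA-depleted RNA under every processing alternative, on the y axis, with TPM as deposited as black diamonds, scalings, GC correction and voom in colour, and the rest as grey points. MCL1 lies below 0 throughout, while BCL2L1, BAX, BBC3, BAD and PMAIP1 have points on both sides of 0.

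The members' transcripts also differ in the sequence that METTL3 prefers. The motif GGACT, written as DNA, is a common form of the m6A consensus, and its count in the longest annotated transcript was 7 in MCL1, 7 in BBC3, 6 in BCL2L1, 6 in BCL2L11, 5 in BAK1, 5 in BID, 3 in BCL2 and 2 each in BAX, BAD and PMAIP1. Per kilobase this was 3.81 in BBC3, 2.30 in BCL2L1, 2.26 in BAK1, 2.0 in BID, 1.78 in MCL1, 1.73 in BAD, 1.47 in BAX, 1.15 in BCL2L11, 1.03 in PMAIP1 and 0.40 in BCL2, and the median over all genes tested was 0.89. Methylation of these sites was not measured here.

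In the rest of the family, 13 genes, BNIP3L rose and BOK fell in rRNA-depleted RNA. These were 2 of 7 genes tested, and 5 did not pass, where 35.3% of all genes were called, with a median log2 change of 0.17 against 0.41 over all genes, or -0.13 with median ratio scaling. BCL2A1, BCL2L14 and BCL2L15 were listed at 0 TPM in all 6 libraries. BOK, a pore former that acts without the guardians, had 235, 242 and 277 TPM in the wild type and 78.2, 89.7 and 102 TPM under the knockout label. That made BOK the most abundant pore former of the wild type, and the log2 change was -1.43 (SE 0.14; limma adjusted p 0.00265). BOK passed in every alternative with more than 1 sample in each label. BNIP3L, a mitophagy receptor, rose from 24.0 to 32.9 TPM to 94.2 to 113 TPM, a rise of 1.81 in log2 (SE 0.19; limma adjusted p 0.00309). Its call could not be checked without knockout-labelled library 3, which leaves 1 knockout-labelled sample. Neither passed in the authors' deposited table (BOK -0.17, adjusted p 0.594; BNIP3L -0.16, adjusted p 0.0653), and of 7 genes of the list with an adjusted p, BNIP3 alone did, with a log2 fold change of -0.60 (SE 0.08; adjusted p 1.54e-11).

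Downstream of the pore, 7 of 17 genes tested passed in rRNA-depleted RNA, 6 higher and 1 lower, from a list of 18, where 35.3% of all genes were called. VDAC1 and VDAC3, channels of the outer membrane that BCL2 proteins bind, rose by log2 changes of 2.37 (SE 0.36; limma adjusted p 0.00764) and 2.47 (SE 0.43; limma adjusted p 0.0109). BIRC6, an inhibitor of apoptosis protein, rose by 2.27 (SE 0.27; limma adjusted p 0.00415). For VDAC1, VDAC3 and BIRC6 the call could not be checked without knockout-labelled library 3, which leaves 1 knockout-labelled sample. XIAP, an inhibitor of apoptosis protein that binds caspases, fell from 83.7 to 102 TPM to 27.2 to 31.9 TPM. The log2 difference was -1.66 (SE 0.155; limma adjusted p 0.00243) and passed in every alternative with more than 1 sample in each label. In the authors' deposited table, 4 of 17 were higher and 0 lower, where 9.55% and 10.3% of all genes were, among them BIRC6 (0.46), VDAC1 (0.39) and BIRC2 (0.38), while VDAC3 (-0.17) and XIAP (0.13) did not pass there. BIRC6, VDAC1 and BIRC2 passed as higher in both library types (BIRC2 by 1.87 in limma, adjusted p 0.00807). The list had a median of 0.17 (-0.18 with median ratio scaling) against 0.41 over all genes in rRNA-depleted RNA and 0.04 against 0.02 in the authors' deposited table.

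Of 25 regulators of the members, 13 passed in rRNA-depleted RNA, 7 higher and 6 lower, where 35.3% of all genes were called and 12.4% as lower, with a median log2 change of 0.46 against 0.41 over all genes. MDM4, a relative of the ubiquitin ligase MDM2, fell by 2.03 on the log2 scale (SE 0.17; limma adjusted p 0.00196). PIM1, a kinase that phosphorylates BAD, fell from 179 to 229 TPM to 41.2 to 52.4 TPM, a log2 difference of -2.16 (SE 0.18; limma adjusted p 0.00188). RPS6KA1, another BAD kinase, fell by 1.07 (SE 0.15; limma adjusted p 0.00585) and did not pass with the GC trend removed. The 14-3-3 proteins YWHAZ and YWHAQ, which hold phosphorylated BAD in the cytosol, rose by log2 changes of 2.0 (SE 0.27; limma adjusted p 0.00535) and 1.61 (SE 0.13; limma adjusted p 0.00182). The stress factors ATF4 and DDIT3 (CHOP) moved in opposite directions, by -1.77 (SE 0.17; limma adjusted p 0.00254) and 1.86 (SE 0.23; limma adjusted p 0.00458). GSK3B, a kinase that marks MCL1 for degradation, rose by 1.32 (SE 0.23; limma adjusted p 0.0111). For YWHAZ, DDIT3 and GSK3B the call could not be checked without knockout-labelled library 3, which leaves 1 knockout-labelled sample.

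Among 24 regulators in the authors' deposited table, 5 passed, 3 higher and 2 lower, near the 19.9% of all genes that passed, with a median of -0.07. MARCHF5, a mitochondrial ubiquitin ligase that acts on MCL1 and NOXA, rose by a log2 fold change of 0.50 (SE 0.10; adjusted p 3.18e-05) in the authors' deposited table, and YWHAZ (0.42) and YWHAQ (0.28) rose there too. PIM1 fell by 0.50 (SE 0.15; adjusted p 0.00857) in the authors' deposited table. YWHAE fell there by 0.33 but had a log2 change of 1.31 (limma adjusted p 0.00186) in rRNA-depleted RNA. MDM4 (0.31), ATF4 (-0.20) and DDIT3 (-0.47) did not pass in the authors' deposited table.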

How the data were processed

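The members and gene lists were chosen with earlier results of these data known. Trimmomatic, STAR, DESeq2 and the build hg38 are named in the submitters' processing notes, without versions or roles, and the annotation, the counter and any use of strand are not given in the sources used here. The authors deposited TPM for each rRNA-depleted library. For poly(A) RNA the authors deposited a table of fold changes between genotypes, used as given. Per the file headers its columns are a normalized count averaged over libraries (a signal), the log2 fold change and SE, the Wald statistic (a score), and the p-value before and after adjustment. Libraries were grouped by genotype and library type as their titles give them.

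GENCODE 29 on GRCh38 supplied lengths, positions and GC content for 56927 of 60669 identifiers. TPM multiplied by length came within 0.02 of a whole number of reads for 90.9% of values above 0. The length of BCL2 differs in the authors' annotation, so its reads follow from the step between its values, with the lowest taken as 1 read. The voom fit did not use this correction. Knockout-labelled libraries 1 and 2 were averaged. Leaving out library 3 therefore left 1 knockout-labelled sample, so no p-value or call from that fit is used. limma 3.58.1 (R 4.3.3, eBayes with trend) was fitted to log2(TPM + 1) of every gene reaching 1 TPM in 3 or more libraries, with Benjamini-Hochberg adjustment and a threshold of 0.05. This scale understates changes of low genes. The fit was tested on simulated data that held counting error only, without further spread between samples, a GC trend or a shift of all genes. That test cannot show how the fit behaves where these are present. Tables were made in Python 3.11.15 with pandas 2.3.3 and numpy 2.4.6, and figures with matplotlib 3.10.9.

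Named are the 10 members, METTL3 and, by list and comparison, up to 4 genes in each direction with the largest change among those past 0.05 whose mean reached 5 TPM (50 normalized counts for poly(A) RNA). Overlapping genes, markers and the values of named genes in the other comparison were added after their values were seen. Some genes and motifs that were analysed are not reported here. Alternatives covered the pseudocount, the filter, the scaling, the GC trend, voom on recovered reads, all 6 libraries kept separate, and each library left out. Read numbers describe counting error only, as the labels mention no molecular identifiers.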

Additional observations from a re-analysis of the deposited data

How the results depend on the processing

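In rRNA-depleted RNA, where limma called 1 member, no member passed without a filter on low values (0), at an adjusted p under 0.01 (0) or with an absolute log2 change of 1 also required (0). Median ratio scaling gave 2, scaling by the 75th percentile 2 and voom on recovered reads 4. Leaving out 1 library other than knockout-labelled library 3 gave 0 to 1. The 4 with voom include BCL2, at reads not corrected for its length. The 5220 genes called became 2242 at 0.01, and 1663 (without knockout-labelled library 3) to 5185 when 1 library was left out. Of the calls 64.8% were higher, against 48.6% with median ratio scaling and 52.4% with voom. In the authors' deposited table the 5 members became 2 at 0.01 and 1 at an absolute log2 fold change of 1, and the 2782 genes became 1811 and 647. Signs turned with the GC trend removed for BCL2L1 (0.327), BAX (0.308), BBC3 (0.453) and PMAIP1 (-0.174). BAD turned with median ratio scaling (-0.309), the 75th percentile (-0.153) and voom (-0.23), and ran from -0.257 to 0.208 with 1 library left out. The causes of these changes were not tested. The difference in the BAX to BCL2 ratio ran from -6.57 to 53.5 with 1 library left out, and that in the PMAIP1 to MCL1 ratio from 0.0565 to 0.0829. Depth limits BCL2, BBC3, BCL2L11 and PMAIP1 most.

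Same-numbered libraries did not deviate together (correlations 0.02, -0.02 and 0.008). Libraries of a label differed little beyond counting error (chi-square per degree of freedom 1.02 to 1.54), so this check could miss a pairing. With all 6 libraries separate, the replicate block left 1 member called, as without the block, with MCL1 at -0.34 (limma adjusted p 0.0402), and 6037 genes against 6880.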
